A study of Danio rerio with 6 samples.

Results

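The genes described here are 10 zebrafish genes of the red cell lineage: the globin genes hbae1.1, hbae3, hbae5, hbbe1.1 and hbbe2, the transcription factor genes gata1a and klf1, the heme synthesis gene alas2, and the red cell membrane genes slc4a1a and epb41b. They were chosen by symbol. In the RNA-seq count tables, 7 symbols were found under their own name. The symbol slc4a1a was found only through the shared name SLC4A1, which covers 2 identifiers that the name tables do not tell apart. No identifier was matched to hbbe1.1 or hbbe2. Matching was by name, and 2709 identifiers had no name, so a failed match does not show that a gene is absent. The members thus comprised 9 of 26375 identifiers, and all 9 passed the filter on low counts that left 18487 identifiers for testing.

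The RNA came from tails with the caudal hematopoietic tissue (CHT), the site where blood stem and progenitor cells expand in the zebrafish embryo, taken at 3 days postfertilization (dpf) from 3 sibling and 3 mettl16-/- samples. The siblings were labelled mettl16+/+ and untreated. The mutants carried a germline knockout of mettl16, an RNA methyltransferase gene, made by CRISPR/Cas9. Each sample pooled the tails of many embryos, and heads were used for genotyping, so the tissue also held muscle, skin, vessels and circulating blood. The counts of mettl16 (ENSDARG00000055838) were 104, 120 and 117 in siblings and 64, 59 and 86 in mettl16-/- embryos. The groups did not overlap, as for 6.89% of all genes tested, in either direction. The difference did not pass the edgeR test used below, without or with replicate numbers as a block (adjusted p = 0.0684 with the block).

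Red cells of the embryo are filled with hemoglobin, a tetramer of α-type and β-type globin chains that each hold a heme group. In zebrafish the α and β genes lie interspersed in shared clusters, and embryos and adults use different sets. Gata1 is the transcription factor that commits progenitors to the red cell lineage, and Klf1 is known in mammals to switch on globin and membrane protein genes as the cells mature. Heme is built from glycine and succinyl-CoA in a chain of enzymes that starts with ALA synthase, whose red cell form is encoded by alas2. Loss of alas2 in zebrafish gives the sauternes anemia, and loss of gata1a gives the bloodless vlad tepes mutant. Band 3, the anion exchanger encoded by slc4a1a, and protein 4.1, encoded by epb41b, hold the membrane to its spectrin skeleton; their zebrafish mutants are named retsina and merlot.

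The study designed qPCR primers for gata1a and some of the globin genes, and those listed here cover no other member. They are listed because they define which globin and gata1a transcripts were to be read. Among these are the hbbe1 and hbbe2 transcripts, whose symbols were matched by name to no identifier in the count tables used here. The primer names hbae1 and hbbe1 do not say which copy (hbae1.1, hbae1.2 or hbae1.3, and likewise for hbbe1) they amplify. All are written 5′ to 3′.
gata1a F: cctctgagccttctcgttgg
gata1a R: acttggcgaactggactgtg
hbae1 F: acacgatgctctctccaggatg
hbae1 R: gcggggaacaaagtggccagaac
hbae3 F: cggccgtgagactctttccagga
hbae3 R: cggggtccacgcgcagcat
hbbe1 F: aggctctggcaaggtgtctcatc
hbbe1 R: cggcgacagcgatgaatttct
hbbe2 F: gcactgcagagggctttgattgt
hbbe2 R: gctcggcgtaggtgttcttgatg

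Libraries held 16239791 to 18541402 counts. Genes were compared on CPM, the usual count corrected for sequencing depth, with library totals scaled by the TMM method, and differences were tested in edgeR with the quasi-likelihood test, with p-values adjusted over all genes tested by the Benjamini-Hochberg method. Libraries with the same replicate number in the labels deviated from their group means together, so a blocked fit, in which each number has its own level (the replicate block), was set beside the plain fit. Without the block, 23 of 18487 genes (0.124%) had an adjusted p under 0.05. With the block, 193 genes (1.04%) did, 120 of them higher in mettl16-/- embryos (0.649%) and 73 lower (0.395%). In each marker list for muscle, epidermis, endothelium, liver and the tail hox genes, no gene matched was at 0 in all libraries. Nothing in the labels says that replicates came from separate clutches, so the tests measure the spread between these pools. In such bulk samples a change in the number of red cells and a change in RNA per cell cannot be told apart.

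The share of hemoglobin transcripts differed between the groups by less than the spread within them. The 9 matched erythroid globin identifiers took 0.415%, 0.394% and 0.298% of all counts in sibling replicates 1, 2 and 3. They took 0.484%, 0.357% and 0.296% in mettl16-/- replicates 1, 2 and 3. The means were 0.369% ± 0.0624 and 0.379% ± 0.0958 (SD, n = 3 each), a difference of 0.00946 percentage points that was smaller than either SD. Counting error was small beside this: the 95% Wilson interval of sibling replicate 1 ran from 0.412% to 0.418%. The ratio of mettl16-/- to sibling was 1.16 at replicate 1, 0.905 at replicate 2 and 0.991 at replicate 3. On TMM-scaled library totals these ratios were 1.18, 0.953 and 1.04, and the means differed by 0.0233 percentage points. With the 10 most abundant genes left out of the totals the means differed by 0.0183 percentage points. Replicate 3 had the lowest share in both groups, and the lowest sibling and lowest mutant library were closer to each other than to the other libraries of their own group. These shares leave out the main embryonic β-globin genes, since hbbe1.1, hbbe1.2, hbbe1.3 and hbbe2 were not matched, nor were the adult genes hbba1 and hbba2, or hbz and hbzap1. The globin gene si:ch211-5k11.8 (ENSDARG00000079078) has an identifier but was outside the lists, so the shares leave it out too. The globin gene ba1l was outside the lists and was not matched to an identifier. The 9 member identifiers together took 0.241%, 0.215% and 0.182% of counts in siblings and 0.270%, 0.197% and 0.184% in mettl16-/- embryos.

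**Figure D1:**
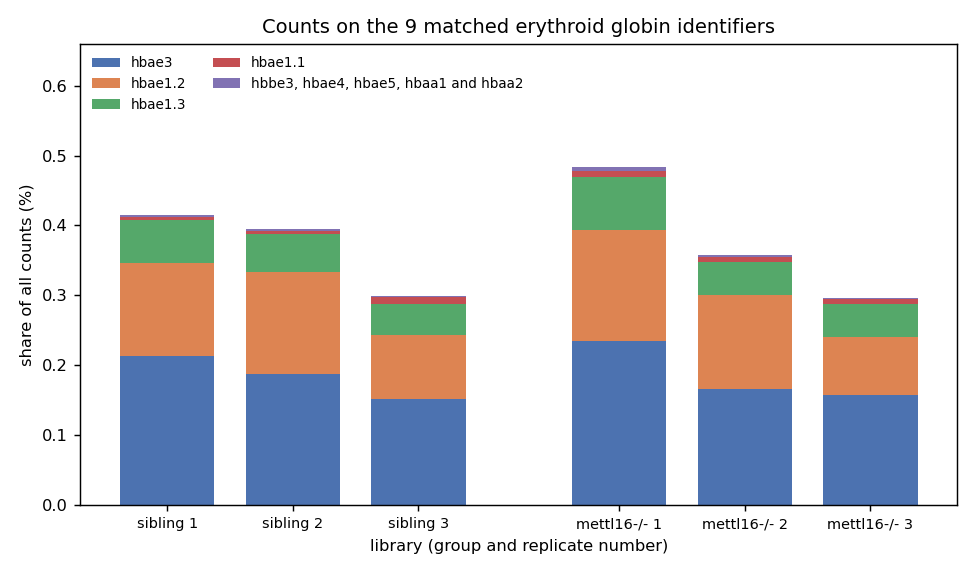
Share of all counts (%) taken by the 9 matched erythroid globin identifiers in each library, stacked by gene, for sibling and mettl16-/- replicates 1 to 3. The highest bar (0.484%) and the lowest (0.296%) are both mettl16-/- libraries, and hbae3, hbae1.2 and hbae1.3 make up nearly all of each bar.

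The largest signal among the matched globins came from hbae3 (ENSDARG00000079305), an embryonic α-type globin gene. Its counts were 36026, 34804 and 25240 in siblings and 38010, 29911 and 27468 in mettl16-/- embryos. The highest library was a mutant and the lowest a sibling, and the groups overlapped. The edgeR fold change was 1.05 (95% interval 0.802 to 1.37). With the replicate block it was 1.04 (0.971 to 1.12). The gene supplied 47.6% to 51.2% of the matched globin counts in siblings and 46.5% to 53.4% in mettl16-/- embryos, a share of counts that is not corrected for transcript length.

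The hbae1 copies, also embryonic α-type genes, are close copies in the same cluster as hbae3, and reads shared between them may have been split, so single copies are uncertain. Counts of hbae1.1 (ENSDARG00000089475) were 889, 868 and 1516 in siblings and 1472, 1278 and 1114 in mettl16-/- embryos. By counts, sibling replicate 3 was the highest library, and the other siblings were the lowest. Its fold change was 1.23 (95% interval 0.788 to 1.90; edgeR adjusted p = 1.0). By replicate number the ratio of CPM was 1.76, 1.59 and 0.735, so replicate 3 ran opposite to the others. Within the matched globin counts, hbae1.1 made up 1.26%, 1.19% and 3.06% in siblings and 1.87%, 1.99% and 2.16% in mettl16-/- embryos. Sibling replicate 3 thus had the most counts of hbae1.1 and the fewest of hbae3 among the 6 libraries. By CPM, mettl16-/- replicate 1 was highest for hbae1.1, at 92.0 beside 90.7 in sibling replicate 3.

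Counts of hbae1.2 (ENSDARG00000088330) were 22742, 26921 and 15084 in siblings and 25935, 24237 and 14443 in mettl16-/- embryos, a fold change of 1.06 (95% interval 0.700 to 1.60). Counts of hbae1.3 (ENSDARG00000089124) were 10266, 10089 and 7506 in siblings and 12304, 8506 and 8194 in mettl16-/- embryos, a fold change of 1.1 (0.807 to 1.51). By counts, replicate 3 was the lowest library of each group for both genes, as for hbae3, and the groups overlapped.

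In the RefSeq order of the GRCz12tu assembly, the smaller globin cluster holds hbae4, hbbe3, hbbe2 and hbae5 as neighbours, of which hbbe2 was not matched. Counts of hbae5 (ENSDARG00000045142), an α-type gene, were 77, 26 and 40 in siblings and 41, 42 and 53 in mettl16-/- embryos. All mutant libraries lay within the sibling range, and the fold change was 0.981 (95% interval 0.524 to 1.84). Counts of hbae4 (ENSDARG00000045144) were 47, 37 and 39 in siblings and 36, 68 and 27 in mettl16-/- embryos, with a fold change of 1.1 (0.641 to 1.88).

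The only β-type gene of the embryonic sets matched by name to an identifier was hbbe3 (ENSDARG00000038147). Its counts were 337, 375 and 146 in siblings and 734, 295 and 177 in mettl16-/- embryos. Mutant replicate 1 stood far above every other library. The fold change of 1.52 carried a 95% interval from 0.491 to 4.69 and did not pass the test (adjusted p = 1.0), and without mettl16-/- replicate 1 the log2 fold change was -0.24. The adult α-type gene hbaa1 had 0, 7 and 2 counts in siblings and 0, 3 and 0 in mettl16-/- embryos, and hbaa2 had 0 in all 6 libraries. A count of 0 allows up to 3 counts, or 0.162 to 0.185 CPM on unscaled totals. Of the 7 globin genes tested, 6 had a fitted fold change above 1 and 1 below, where 49.1% of all genes tested were above 1, with a median log2 fold change of 0.13 beside -0.0032 over all genes. None passed the edgeR test in either fit, and none had an unadjusted p under 0.05 in either, where 2.17% of all genes tested did without the block and 9.2% with it.

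Globins outside red cells were at low counts. Myoglobin (mb), neuroglobin (ngb), cytoglobin 2 (cygb2) and androglobin (adgb) were tested, and none passed. Their fold changes were 0.926 for mb, 1.08 for ngb, 0.795 for cygb2 and 0.696 for adgb, with mb at 8.84 ± 0.950 CPM in siblings and 8.18 ± 2.50 in mettl16-/- embryos (SD, n = 3). Single libraries moved the values of cygb2 and ngb. Without mettl16-/- replicate 3 the log2 fold change of cygb2 was -0.94 in place of -0.33, and that of ngb was -0.61 in place of 0.11. The value of cygb2 was -0.0081 without mettl16-/- replicate 2 and -0.0094 without sibling replicate 3.

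**Figure D2:**
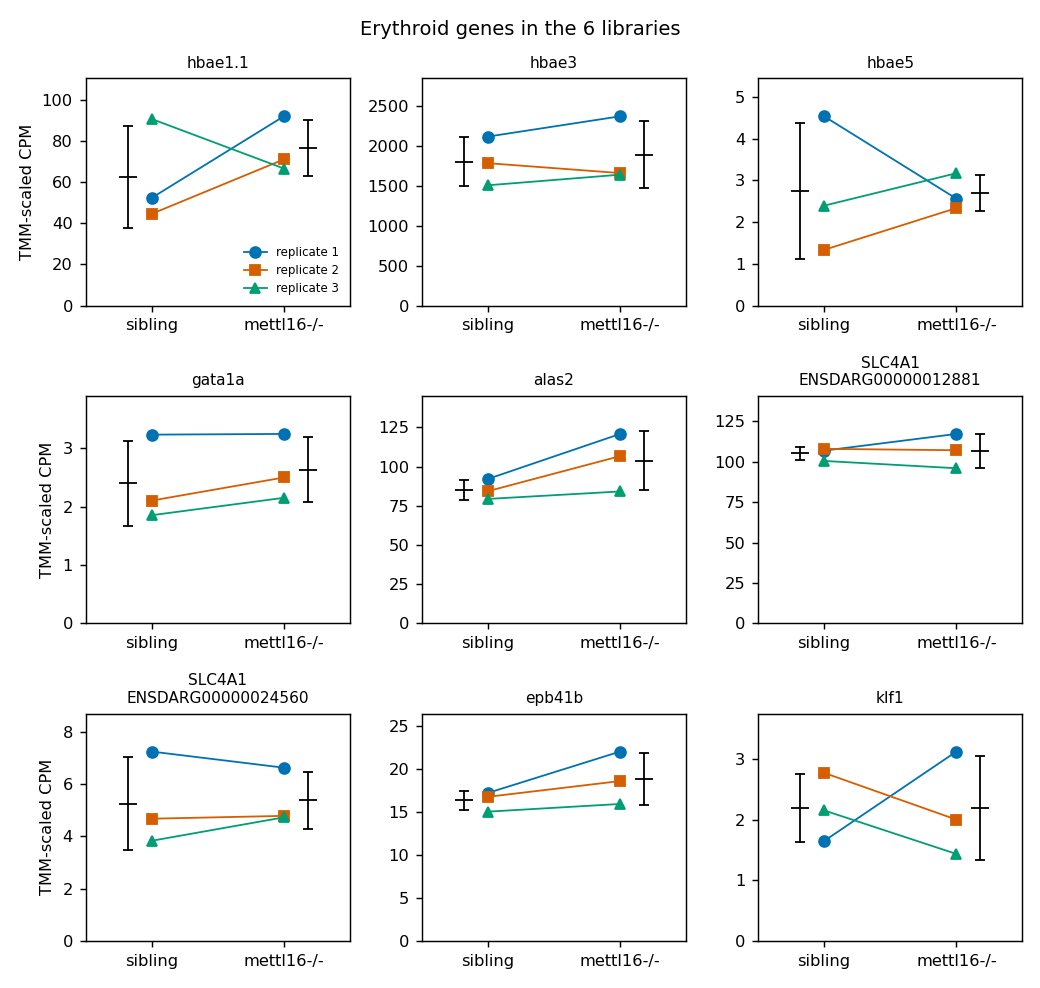
TMM-scaled CPM of the 9 member identifiers in each library, with lines joining the sibling and mettl16-/- libraries of the same replicate number and bars giving the mean and SD of each group (n = 3). The groups overlap in every panel. For alas2, epb41b and gata1a the mutant point lies above the sibling point at all 3 numbers, as for 15.0% of all genes tested. For gata1a at replicate 1 the ratio is only 1.004.

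Neither transcription factor gene among the members passed the test, and their groups overlapped. Counts of gata1a (ENSDARG00000013477) were 55, 41 and 31 in siblings and 52, 45 and 36 in mettl16-/- embryos. Replicate 1 was highest in each group and replicate 3 lowest. The level was 2.40 ± 0.737 CPM in siblings and 2.64 ± 0.560 in mettl16-/- embryos (SD, n = 3), a fold change of 1.1 (95% interval 0.682 to 1.77). Counts of klf1 (ENSDARG00000017400) were 28, 54 and 36 in siblings and 50, 36 and 24 in mettl16-/- embryos. Its fold change was 0.993 (0.574 to 1.72), and at such counts a change within that interval was not detectable.

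Among 30 tested identifiers of erythroid regulators, 12 had fitted values above and 18 below those of siblings, with a median log2 fold change of -0.0073. None passed the edgeR test in either fit. At an unadjusted p under 0.05, 1 was lower without the block, and 1 was higher and 2 lower with it, beside 2.17% and 9.2% of all genes tested. The genes tal1 and lmo2, whose proteins form a DNA-binding complex with Gata1, had fold changes of 0.993 (95% interval 0.794 to 1.24) and 0.991 (0.795 to 1.24). The lowest unadjusted p belonged to klf17, a Krüppel-like factor gene of zebrafish blood and hatching gland. Counts of klf17 (ENSDARG00000038792) were 110, 132 and 118 in siblings and 88, 86 and 88 in mettl16-/- embryos. All mutant libraries lay below all siblings, as they did, in either direction, for 6.89% of all genes tested. The fold change of klf17 was 0.765 (95% interval 0.591 to 0.991; edgeR adjusted p = 1.0, and 0.411 with the replicate block). Fold changes of nfe2, which encodes a subunit of a globin activator, of bach1a and of the identifier ENSDARG00000002196 listed as BACH1, both of a heme-sensing repressor family, were 1.38, 0.622 and 0.886, and none passed. The log2 fold change of bach1a was -0.68 with all libraries, 0.057 without sibling replicate 1 and -1.26 without mettl16-/- replicate 1. Markers of hematopoietic stem and progenitor cells (HSPCs) were measured beside these genes. All 6 tested had fitted fold changes below 1, where 49.1% of all genes tested were above 1. The summed level of the list was 255 to 281 CPM in siblings and 234 to 274 in mettl16-/- embryos. The HSPC list also holds tal1 and lmo2. Of its genes, myb had 16.9 ± 1.59 CPM in siblings and 13.8 ± 0.939 in mettl16-/- embryos (SD, n = 3) and groups that did not overlap. Among the 6 tested it was the only 1 without overlap, where 6.89% of all genes tested had none, in either direction. No HSPC marker passed the edgeR test in either fit, and the lowest adjusted p with the block was 0.318. The part of the HSPC markers in the levels of the erythroid genes was not tested.

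The heme synthesis gene alas2 (ENSDARG00000038643) was the one member with a call, and only when replicate numbers were taken into account. Its counts were 1564, 1641 and 1326 in siblings and 1933, 1918 and 1406 in mettl16-/- embryos. Mutant replicates 1 and 2 stood above every sibling, whereas mutant replicate 3 lay within the sibling range. On the CPM scale the level was 85.2 ± 6.42 in siblings and 104 ± 18.5 in mettl16-/- embryos (SD, n = 3). The ratio at replicates 1, 2 and 3 was 1.31, 1.27 and 1.06, higher at all 3 numbers, as were 15.0% of all genes. Without the block the fold change was 1.22 (95% interval 0.993 to 1.49; edgeR adjusted p = 1.0). With the replicate block it was 1.21 (1.11 to 1.32; adjusted p = 0.0177), so alas2 was 1 of 9 members called where 1.04% of all genes were. The call depended on the tool and on the libraries. With DESeq2 and the same block the adjusted p was 0.233. With both libraries of replicate 1 left out it was 0.235, with those of replicate 2 left out 0.322, and with those of replicate 3 left out 0.0212.

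No other heme synthesis gene described here passed the test. Of 8 identifiers tested, 2 had fitted fold changes above 1 and 6 below, with a median log2 fold change of -0.14. The call of alas2 with the block was the only call in either fit, where 1.04% of all genes were called with the block. The housekeeping ALA synthase gene alas1 had a fold change of 1.08 (95% interval 0.814 to 1.42). The gene alad, for the enzyme that joins pairs of ALA into porphobilinogen, was at 0.944 (0.789 to 1.13). Fold changes of the porphyrinogen enzyme genes were 0.830 for uros, 0.863 for urod, 0.889 for cpox and 0.921 for ppox, each with an interval that held 1.

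Counts of uros (ENSDARG00000027491), which had the widest difference of these, were 169, 325 and 264 in siblings and 194, 206 and 195 in mettl16-/- embryos. The mutant libraries were tightly grouped inside the sibling range. The final gene, fech, for the ferrochelatase that inserts iron into the ring, had 20, 15 and 26 counts in siblings and 25, 11 and 14 in mettl16-/- embryos, too few to measure a change closely (fold change 0.860, 95% interval 0.420 to 1.76).

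**Figure D3:**
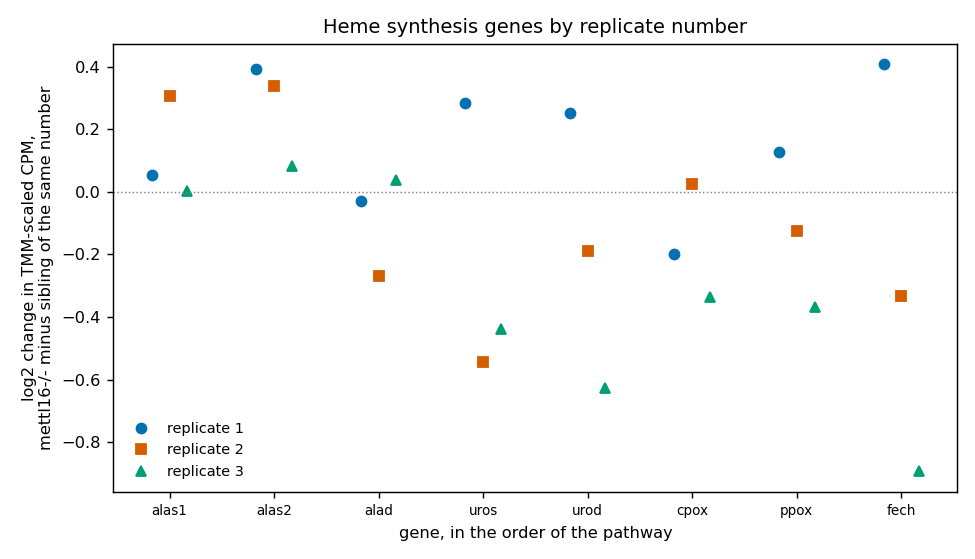
Log2 change in TMM-scaled CPM between the mettl16-/- and the sibling library of the same replicate number, for 8 identifiers of heme synthesis in pathway order. All 3 points lie above 0 for alas2 and alas1, as for 15.0% of all genes tested. By contrast, uros, urod, ppox and fech have replicate 1 above 0 and replicates 2 and 3 below.

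For the membrane genes among the members, each 95% interval held a fold change of 1, without and with the block. For SLC4A1 ENSDARG00000012881, counts were 1816, 2103 and 1680 in siblings and 1876, 1927 and 1605 in mettl16-/- embryos. This was the most tightly measured of the members without the block, with a fold change of 1.02 (95% interval 0.871 to 1.18). For SLC4A1 ENSDARG00000024560, counts were 123, 91 and 64 in siblings and 106, 86 and 79 in mettl16-/- embryos, a fold change of 1.02 (0.682 to 1.54). Which of these is slc4a1a was not settled, and both intervals held 1.

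Counts of epb41b (ENSDARG00000029019) were 292, 326 and 251 in siblings and 352, 334 and 266 in mettl16-/- embryos. Mutant replicates 1 and 2 were the highest libraries by CPM, and mutant replicate 3 lay within the sibling range, the same order of libraries as for alas2. The CPM was 16.3 ± 1.15 in siblings and 18.8 ± 3.05 in mettl16-/- embryos (SD, n = 3). Its fold change was 1.15 (95% interval 0.924 to 1.44), and with the replicate block 1.15 (0.997 to 1.32; edgeR adjusted p = 0.557).

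Of 21 tested identifiers in the list of membrane and cytoskeleton genes, 15 had fitted fold changes above 1 and 6 below, with a median log2 fold change of 0.081. The list is not limited to red cell genes, since it also holds RHCG identifiers and tmod4, described below. The Rh-associated glycoprotein gene rhag and the β-spectrin gene sptb had fold changes of 1.06 (95% interval 0.913 to 1.23) and 1.06 (0.861 to 1.3). The red cell carbonic anhydrase gene cahz was at 1.05 (0.843 to 1.3). Fold changes of kel and of SLC2A1 ENSDARG00000001437, a glucose transporter, were 1.22 and 1.41, on few counts, and neither passed.

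The single call in this list, 1 of 21 tested identifiers, was made only with the block, where 0.649% of all genes were called higher. It was RHCG ENSDARG00000003203, which encodes an ammonia channel of a family that zebrafish also use in gill and skin. It was found for rhcga through the shared name RHCG, which covers several identifiers. Its counts were 1826, 1203 and 1051 in siblings and 2229, 1562 and 1375 in mettl16-/- embryos. The groups overlapped, but the mutant was above the sibling at every replicate number, as for 15.0% of all genes tested. The ratios were 1.3, 1.41 and 1.31. The edgeR fold change was 1.33 (95% interval 0.828 to 2.13; adjusted p = 1.0). With the replicate block it was 1.33 (1.23 to 1.45; adjusted p = 4.6e-05), and it also passed with DESeq2 and the block and without each replicate number in turn. The tropomodulin gene tmod4, better known from skeletal muscle, had a fold change of 1.13 (0.958 to 1.33; adjusted p = 0.0868 with the block). Skeletal muscle markers were measured beside it: 9 of 9 identifiers had fitted fold changes above 1, where 49.1% of all genes tested did. With the block 2 were called higher, where 0.649% of all genes were, and none was called without it. The summed level of the muscle markers was 118335 to 150537 CPM in siblings and 138404 to 154633 in mettl16-/- embryos. Their part in the membrane list was not tested.

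**Figure D4:**
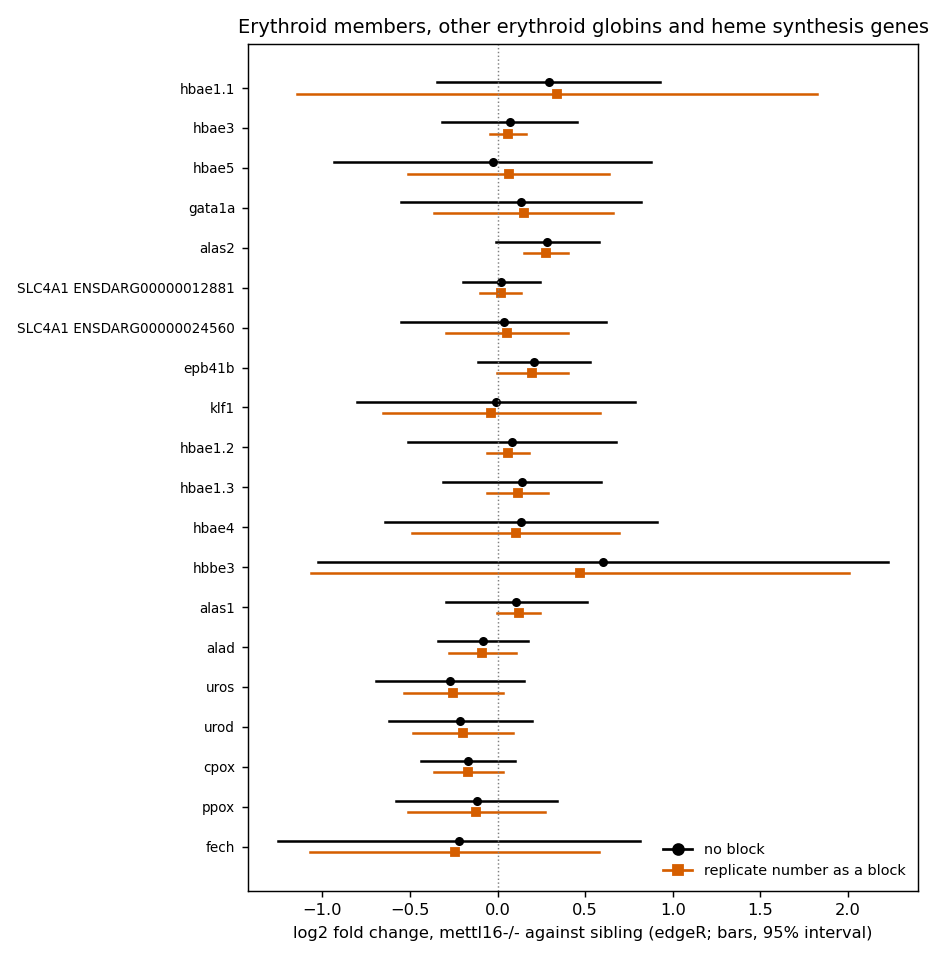
Log2 fold change (mettl16-/- against sibling) from edgeR with its 95% interval, without (circles) and with (squares) the replicate number as a block, for the members, the other tested erythroid globins and 8 heme synthesis genes. Every interval without the block crosses 0, and with the block alas2 alone lies clear of it, at 0.27.

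Of 31 tested identifiers for iron supply and heme transport, 13 had fitted fold changes above 1 and 18 below, with a median log2 fold change of -0.053. Mitoferrin 1, which brings iron into the mitochondria of red cells and is encoded by slc25a37, had 15, 4 and 2 counts in siblings and 7, 0 and 4 in mettl16-/- embryos and was not tested. The transferrin receptor gene tfr1a, mutated in the chianti anemia, had 67, 48 and 37 counts in siblings and 55, 37 and 33 in mettl16-/- embryos and did not pass. The glutaredoxin gene glrx5, needed for iron-sulfur clusters and mutated in shiraz, had a fold change of 1.12 (95% interval 0.922 to 1.36; adjusted p = 0.441 with the block). Fold changes were 1.26 for SLC25A38 ENSDARG00000074533, a mitochondrial glycine carrier, 1.17 for FTH1 ENSDARG00000007975, a ferritin heavy chain, and 0.917 for CLPX ENSDARG00000067796, an unfoldase that acts on ALA synthase, and none passed.

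The call in the iron list, 1 of 31 tested identifiers, was made only with the block, where 0.395% of all genes were called lower. It was tfa, which encodes transferrin, the iron carrier of plasma. Its share of counts was 0.116%, 0.163% and 0.173% in siblings and 0.107%, 0.130% and 0.135% in mettl16-/- embryos. Transferrin is made in the liver, and tfa also stood in the list of liver markers. The fold change was 0.858 (95% interval 0.677 to 1.09; edgeR adjusted p = 1.0), and 0.864 with the block (0.807 to 0.925; adjusted p = 0.0217). With DESeq2 and the block the adjusted p was 0.0694. Without replicate 1, 2 or 3 it was 0.00172, 0.322 and 0.656. The 5 liver markers all had fitted fold changes below 1, where 49.1% of all genes tested were above 1. With the block, 3 of them (tfa, fgb and fabp10a) were called lower, where 0.395% of all genes were. None of the 5 was called without the block. The summed liver level was 4549 to 5436 CPM in siblings and 4483 to 4959 in mettl16-/- embryos. Their part in the value of tfa was not tested.

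Across the 6 libraries the mean standardised level of the members was 0.35, -0.44 and -0.61 in siblings and 1.22, 0.049 and -0.57 in mettl16-/- embryos. Replicate 1 was highest and replicate 3 lowest in both groups. Of the 9 members, 7 had a fitted fold change above 1 and 2 below, where 49.1% of all genes tested were above 1. None had groups that did not overlap, where 6.89% of all genes tested did. Without the block, none had an adjusted p under 0.05 with edgeR or with DESeq2, nor an unadjusted p under 0.05 with edgeR. With edgeR, 0.124% of all genes tested had such an adjusted p and 2.17% such an unadjusted p. Outside the lists, the genes most like this course were KMT2C (Pearson r = 0.996), PRDX4 (0.991), ASAP1 (0.986), ADGRA2 (0.984) and zgc:113279 (0.983). They came from 13860 genes with a mean of at least 50 counts. All members, pathway list genes and cell markers were left out of these, so other erythroid genes were not compared. The correlation is over 6 libraries that share their replicate numbers, and 345 genes exceeded 0.9, so it is given as a description.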

How the data were processed

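Per the paper's methods and the labels, the authors filtered reads with fastp 0.18.0, removed ribosomal RNA reads with Bowtie2, mapped the rest to GRCz11 with HISAT2 and ran StringTie 1.3.1. They deposited whole-number counts per gene, not normalized. The counting tool, its strand setting and its handling of multi-mapping reads are not given in the sources used here, so paralog counts are uncertain. Symbols came from a table of gene names, for 23499 of 26375 identifiers, and from lists of the study for 167 more. RefSeq GRCz12tu gave gene order only. Members and lists were chosen with earlier results of these data known. Some genes of the lists are not reported here.

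Counts of all 6 libraries were fitted in R 4.3.3 with edgeR 4.0.16 (TMM, filterByExpr, glmQLFit with robust=TRUE, glmQLFTest). Alternatives used DESeq2 1.42.0, other filters and scalings, a replicate block and left-out libraries. Same-numbered libraries correlated in their deviations at 0.586, 0.312 and 0.518 (across genes), other pairs at -0.45 to -0.0362, so the numbers were taken to pair the libraries. Deviations from a group mean cancel within the group, so positive values for same-numbered pairs force lower ones for other pairs. The choice to pair was made from these same data. Libraries of a group differed by more than sampling noise. The fits were tested on simulated data with no replicate effect and with changes larger than those of the calls described here. That test therefore does not bear on the calls made only with the block. Wilson intervals and the floor of 3 counts cover counting error only. Genes named from lists were those called in either fit and the up to 4 further genes of lowest unadjusted p per list. The globins of the erythroid list were all named, but not every globin outside it. The genes tal1, lmo2, alas1, ppox, fech, sptb, cahz, slc25a37 and tfr1a were added after their values were seen.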

Additional observations from a re-analysis of the deposited data

How the results depend on the processing

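The count of genes with an adjusted p under 0.05 was 23 and became 60 with DESeq2 on the same genes, 61 with DESeq2 and no filter, 193 with the replicate block, and 3 to 21 with a library left out. At the study's cut-off (unadjusted p of at most 0.05 and a fold change of at least 1.5), 216 genes became 334 with no filter, 108 with a mean of at least 50 counts, 389 with the replicate block, and 201 to 352 with a library left out. The block added the calls of alas2, tfa, RHCG ENSDARG00000003203, fgb and fabp10a and changed no other call of a named gene; it turned the log2 fold change of hbae5 to 0.064. Over 36 of the named genes and 8 settings other than left-out libraries, 274 values kept direction and call, 3 gained a call and 1 turned.

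Leaving out a library turned the sign of log2 fold changes, none of which passed a test. Their ranges were -0.13 to 0.20 for hbae3, -0.37 to 0.54 for hbae5, -0.040 to 0.41 for gata1a, -0.35 to 0.22 for klf1, -0.048 to 0.094 for SLC4A1 ENSDARG00000012881 and -0.14 to 0.33 for SLC4A1 ENSDARG00000024560. They were -0.13 to 0.30 for hbae1.2, -0.12 to 0.26 for hbae1.3, -0.27 to 0.38 for hbae4, -0.24 to 0.96 for hbbe3, -0.39 to 0.011 for mb, -0.61 to 0.39 for ngb and -1.26 to 0.057 for bach1a. The difference in globin share ran from -0.0429 to 0.0510 percentage points, that of the members from -0.0220 to 0.0211. The cause was not tested. The blocked alternatives for alas2, tfa and RHCG were chosen after seeing the data. At the counts of klf1, gata1a, hbae5 and fech, changes inside their intervals were not detectable.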
